A study of Mus musculus with 11 samples.

Results

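The seed family of miR-17, miR-20, miR-93 and miR-106 was followed across 11 deposited arrays of mouse mammary tissue. Members were all listed mouse probes named miR-17, miR-20, miR-93 or miR-106 with any letter, arm or star suffix. This rule found 6 of the 334 mouse miRNAs on the array, namely mmu-miR-17-5p, mmu-miR-20a, mmu-miR-20b, mmu-miR-93, mmu-miR-106a and mmu-miR-106b (written without mmu from here on). Total RNA came from normal glands of females late in pregnancy, with 3 arrays of FVB129B6 mice, 3 of Balb/C mice (Balbc) and 2 of FVB mice, and from 3 primary mammary tumors of C3(1)/Tag mice on the FVB strain. No age was given in the labels. In C3(1)/Tag mice the 5' flank of the rat prostate steroid binding protein gene C3(1) drives SV40 large and small T antigens. The control glands carry no such transgene in their labels. The titles of Balb/C replicates 2 and 3 could name 2 glands of 1 mouse, and nothing else states how the samples of a group are related, so p-values measure only the spread between these samples.

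A miRNA finds its messenger targets mainly through its seed, bases 2 to 8 from the 5' end, so miRNAs with one seed are read as one family. The members lie in 3 paralogous clusters, each transcribed as one precursor. E2F factors are known to act on the promoters of such clusters and are themselves targets of miR-17 and miR-20a. Large T antigen binds Rb and frees E2F, and the family is best known for promoting proliferation.

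The mature sequences are shown because they define the family and show how little separates its probes. They were taken from RefSeq (GRCm38.p6) and are written 5' to 3', with the seed in capitals.
miR-17-5p: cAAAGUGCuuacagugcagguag
miR-20a: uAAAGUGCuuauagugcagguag
miR-106a: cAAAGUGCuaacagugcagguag
miR-20b: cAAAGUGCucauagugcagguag
miR-106b: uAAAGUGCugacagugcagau
miR-93: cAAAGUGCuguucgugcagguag
All 6 carried the seed AAAGUGC, and no other among the 266 array miRNAs matched to RefSeq did. Counted from 1 at the 5' end, and with the base of miR-17-5p first, miR-106a differed at U10A alone. miR-20a differed at C1U and C12U, and miR-20b at U10C and C12U. miR-106b differed at C1U, U10G and G20A and was 21 bases long against 23. miR-93 differed at 4 neighbouring bases, U10G, A11U, C12U and A13C. The array probes were as close. The probes of miR-106a and miR-20b lay 2 base edits apart, and those of miR-17-5p and miR-106a 3 apart. How far each probe also bound its paralogs was not tested.

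The mature miR-17-5p lies at chr14:115043684-115043706 and miR-20a at chr14:115044183-115044205, both on the plus strand, beside Mir18, Mir19a, Mir19b-1 and Mir92-1. miR-106a lies at chrX:52742541-52742563 and miR-20b at chrX:52742159-52742181, on the minus strand. miR-106b lies at chr5:138165787-138165807 and miR-93 at chr5:138165574-138165596, on the minus strand with Mir25. These 3 hairpins fall inside the annotated span of Mcm7 (chr5:138164583-138172111), a helicase subunit that licenses DNA replication. Whether they are intronic was not looked up here.

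A level is the log2 green intensity of a probe minus the median of its array, averaged over its 4 spots, so that a level of 0 is the array median. Levels of different probes are not compared. A miRNA is called above background where at least 50% of its spots carry the scanner program's call of being well above it. Of the 334 miRNAs, 209 to 262 were above background in the glands, with the FVB arrays lowest (209 and 229), and 15 to 64 in the tumors. The FVB arrays were also dimmer than the other gland arrays, with median green intensities of 188.5 and 245.5 against 508 and more, and the tumor arrays were dimmer still (125 to 170). All 10 epithelial miRNAs of a fixed marker list were above background on every gland array, while 1 of 10 was so on all 3 tumor arrays and 5 were so on none (miR-141, miR-200b, miR-203, miR-182 and miR-183). The lists of other cell types were also complete on every gland array. On all 3 tumor arrays 1 of 5 stromal and myoepithelial and 0 of 3 red cell miRNAs were above background. For lymphoid and myeloid miRNAs it was 0 of 5, and for skeletal muscle 0 of 3. The glands lay on one slide and the tumors on another, read with another version of the program, so slide and tumor cannot be told apart. The FVB arrays had column 4 of the gland slide to themselves, so that column and the FVB strain cannot be told apart either.

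In the normal glands every member was measured above background, and no member passed the test over the strains. All 6 were above background with all 4 spots on all 8 gland arrays. miR-17-5p, the founding member of the chromosome 14 cluster, had levels of 5.69, 5.35 and 5.79 in FVB129B6 glands, 5.17, 5.41 and 5.37 in Balb/C glands and 5.23 and 5.63 in FVB glands. The ranges of the 3 strains overlapped. Its cluster partner miR-20a ran from 5.47 to 5.93, from 5.26 to 5.53 and from 5.21 to 5.57 in the same order, also with overlap.

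In the chromosome X cluster, miR-106a had levels of 4.55, 4.29 and 4.68 in FVB129B6, 4.19, 4.39 and 4.30 in Balb/C and 4.31 and 4.39 in FVB glands, again with overlap. miR-20b, its partner, was nearer to the array median, at 1.42, 0.94 and 1.51 in FVB129B6, 1.08, 2.07 and 1.09 in Balb/C and 0.92 and 0.59 in FVB glands. Both FVB values lay below all 6 others, as held for 8.81% of the 261 miRNAs tested. The high value belonged to Balb/C replicate 2. On that array the summed level of 5 lymphoid and myeloid miRNAs was 8.49, against 5.56 to 6.36 on the other gland arrays, and miR-150, a lymphocyte miRNA, stood at 6.90 against 2.21 to 4.86. Their part in the miR-20b value was not tested. On the same array miR-363, whose hairpin also lies on chromosome X, stood at -1.12 with 4 of 4 spots above background. On the other gland arrays it stood at -4.52 to -2.60. In the red channel miR-20b was at 1.30 on that array, inside its gland range of 1.07 to 1.48.

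With the array median as reference, the chromosome 5 cluster ran the other way. miR-106b had levels of 5.74, 5.54 and 5.95 in FVB129B6, 5.58, 5.72 and 5.76 in Balb/C and 5.84 and 6.23 in FVB glands, where the lower FVB value lay inside the FVB129B6 range. This direction depends on the scaling. With the 75th percentile as reference the FVB mean of miR-106b lay below the mean of the 3 strains (1.95 against 2.00). miR-93 had levels of 5.17, 4.98 and 5.31 in FVB129B6, 4.93, 4.97 and 5.09 in Balb/C and 5.44 and 5.89 in FVB glands. Both FVB arrays were above the other 6 for miR-93, as for 38.3% of the miRNAs tested.

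**Figure D1:**
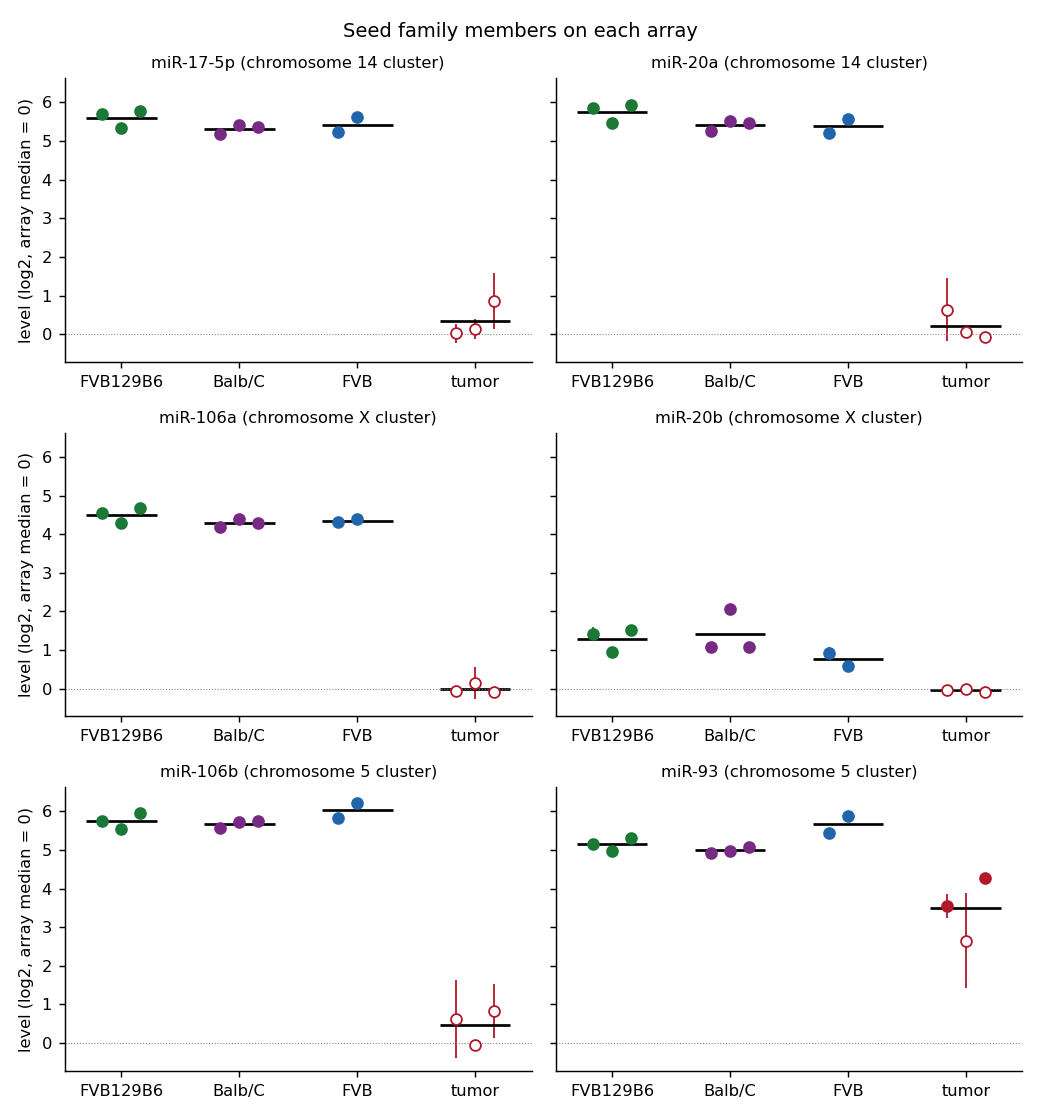
Log2 level of each member (array median at 0, dotted line) on each of the 11 arrays by group, with vertical bars for the SD over the spots of the array, horizontal bars for the group mean, and open symbols where fewer than 50% of spots were well above background. All gland points are filled, while on the tumor arrays only miR-93 replicates 1 and 3 are.

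With limma's moderated F-test over the 3 strains, adjusted for the 261 miRNAs tested, 0 of 6 members passed a threshold of 0.05, against 46.0% of all miRNAs tested. At an unadjusted p under 0.05 the count was 1, for miR-93 (adjusted p = 0.0575). The other adjusted p-values ran from 0.259 for miR-20a to 0.483 for miR-106a. From the contrasts of that limma fit, only miR-93 was called, with a lower level in the Balb/C group than in the FVB group (log2 difference -0.67, SE 0.20, adjusted p = 0.0320). This was 1 of 6 members called, lower, beside 32.2% of all miRNAs tested. The call was lost when any of Balb/C replicates 1, 2 and 3, FVB replicate 2 or FVB129B6 replicate 1 was left out, and also with Balb/C replicates 2 and 3 averaged as one sample (limma adjusted p = 0.0538). With no normalization the direction turned (0.69). Between FVB129B6 and FVB glands 0 of 6 members were called against 39.5% of all tested (1 at an unadjusted p under 0.05). There miR-93 differed by -0.51 (limma adjusted p = 0.0696), and miR-20a by 0.37, with a 95% interval from -0.13 to 0.86. Between Balb/C and FVB129B6 glands 0 of 6 were called against 3.45%, and 0 had an unadjusted p under 0.05.

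So with the array median as reference the order of the strains was FVB, FVB129B6, Balb/C for miR-106b and miR-93. It began with FVB129B6 for miR-17-5p, miR-20a and miR-106a. For miR-20b it ran Balb/C, FVB129B6, FVB. Of all neighbours in these orders, none passed the limma contrast at 0.05. Across the 261 miRNAs tested the median difference from FVB was -0.48 in Balb/C and -0.39 in FVB129B6 glands, so all members but miR-93 lay above that median. Relative to it miR-17-5p, miR-20a and miR-106a stood at 0.57, 0.76 and 0.55 in FVB129B6 glands, and miR-106b at 0.10. This baseline depends on the scaling. With the median of the miRNAs detected on all arrays as reference, the all-miRNA median for FVB129B6 minus FVB was 0.13. On that scale miR-20a was 0.89 higher (limma adjusted p = 0.00674), miR-17-5p 0.71 higher (adjusted p = 0.0114) and miR-106a 0.68 higher (adjusted p = 0.0115), and miR-93 differed by 0.012.

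**Figure D2:**
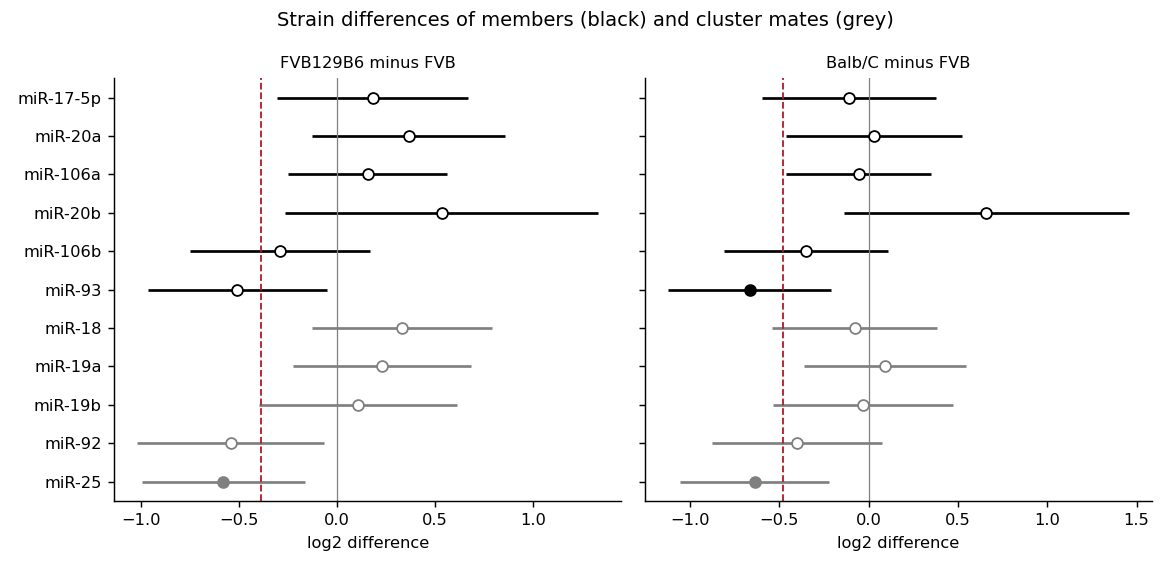
Log2 difference from FVB glands with its 95% interval from limma for each member (black) and for 5 cluster mates (grey), filled where the adjusted p was under 0.05. The dashed line is the median of the 261 miRNAs tested, at -0.39 on the left and -0.48 on the right. miR-93 and miR-25 sit on its left in both panels and miR-92 in the left panel, and the others sit on its right.

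The cluster mates do not share the seed but come from the same precursors. The probes of miR-18 and miR-19a match hairpins of the chromosome 14 cluster, and that of miR-25 a hairpin of the chromosome 5 cluster. Those of miR-19b and miR-92 match hairpins of the chromosome 14 and X clusters. Mir363 lies in the chromosome X cluster, but the miR-363 probe had no match in RefSeq. Of 6 mates on the array, only miR-25 passed the F-test, and it was called lower than FVB in FVB129B6 and in Balb/C glands (-0.58 and -0.64). The shared probe sequences of miR-19b and miR-92 fit hairpins on both chromosomes 14 and X, so their cluster cannot be told apart. Over the 8 gland arrays, the 5 miRNAs whose levels correlated best with the mean of the members were miR-19b (Pearson's r = 0.86), miR-223 (0.85), miR-340 (0.80), miR-18 (0.77) and miR-19a (0.71), of 255 compared. Among members, r was 0.95 for miR-17-5p with miR-20a and 0.94 for miR-106b with miR-93, but 0.42 for miR-106a with miR-20b. Across clusters it ran from -0.54 for miR-20b with miR-93 to 0.93 for miR-106a with miR-20a. It was 0.92 for miR-17-5p with miR-106a and 0.43 for miR-17-5p with miR-93. All these points share their array's scaling and, for 2 Balb/C arrays, possibly a mouse.

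The difference between 2 members on the same array is free of a constant shift of that array's log2 levels. It is not free of effects that vary with brightness, and the FVB arrays were dimmer. By this measure miR-106b of the chromosome 5 cluster differed between strains relative to miR-17-5p and miR-106a. miR-17-5p minus miR-106b was -0.05, -0.19 and -0.16 in FVB129B6, -0.40, -0.31 and -0.39 in Balb/C and -0.62 and -0.60 in FVB glands. The 3 strains did not overlap. The exact permutation test of an F statistic over 560 relabelings of the strains gave p = 0.00357, the smallest it can give, and 0.00536 after adjustment over the 3 pairs tested. The difference of FVB glands from the other 6 was -0.36 (two-sided exact permutation p = 0.0357 over 28 relabelings, also the smallest possible), which did not pass after adjustment (0.0536).

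miR-106a minus miR-106b behaved alike, at -1.19, -1.25 and -1.27 in FVB129B6, -1.38, -1.33 and -1.46 in Balb/C and -1.53 and -1.84 in FVB glands. Again no strains overlapped, and the exact permutation p-values were the same (0.00357 and, adjusted, 0.00536), with an FVB difference of -0.37 that also did not pass after adjustment (0.0536). Without FVB replicate 2 that difference was -0.22, and as a ratio of green to red it was -0.04, against -0.19 for miR-17-5p minus miR-106b. By contrast miR-17-5p minus miR-106a, chromosome 14 against X, ran from 1.06 to 1.14 in FVB129B6 and from 0.98 to 1.07 in Balb/C glands and was 0.92 and 1.24 in FVB glands. These ranges overlapped and the exact permutation test gave p = 0.661. Without FVB replicate 1 the F-test over the strains passed for this pair too (exact permutation, adjusted p = 0.0286), with the remaining FVB array 0.18 above the mean of the other glands. A loss of the chromosome 14 members relative to the chromosome 5 members in FVB glands, or a gain of the latter, cannot be told apart from a ratio.

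Such separation was common on these arrays. Among all 33930 pairs of tested miRNAs, 14.7% separated the 3 strains without overlap and 38.9% set both FVB arrays apart from the others. Of the 15 pairs of members 5 and 11 did so. Pairs inside one cluster were among them, since miR-17-5p minus miR-20a averaged -0.15 in FVB129B6, -0.10 in Balb/C and 0.04 in FVB glands, each with an SD of 0.02 to 0.03. In the 1 column of the slide that held more than one strain, miR-17-5p minus miR-106b was -0.16 for FVB129B6 replicate 3 and -0.40 for Balb/C replicate 1. The summed level of 3 red cell miRNAs (miR-451, miR-144 and miR-486) had the same order of strains without overlap, at 6.83 to 7.39, 7.67 to 8.72 and 9.53 to 9.61. The 3 skeletal muscle miRNAs summed to 8.45 to 8.62, 9.17 to 9.97 and 3.64 and 6.02. Their part in these differences was not tested.

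**Figure D3:**
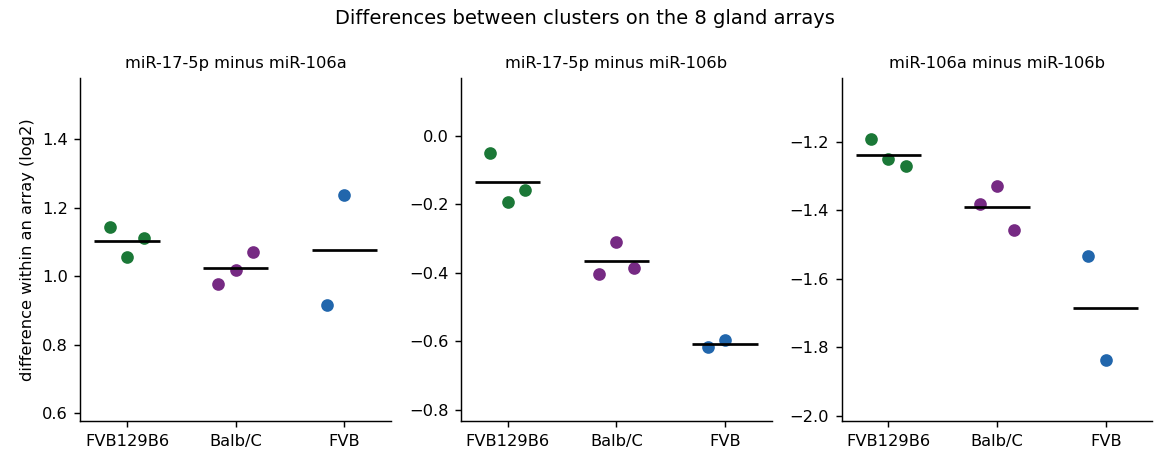
Difference in log2 level between 2 members on the same array for the 8 gland arrays, by strain, with horizontal bars for strain means and all panels spanning 1 log2 unit. The strains overlap for miR-17-5p minus miR-106a and do not overlap in the other panels, where FVB glands are lowest.

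In the C3(1)/Tag tumors only miR-93 was measured above background. miR-17-5p, miR-20a, miR-20b and miR-106a had 0 of 4 spots above background on each tumor array. miR-106b had 1 spot above background on replicate 3 and none on the others. miR-93 had all 4 spots above background on replicates 1 and 3 and 1 spot on replicate 2, at levels of 3.55, 2.65 and 4.28 in replicate order. All were below the lowest gland value of 4.93.

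For the other members a tumor level gives only a bound, from the dimmest miRNA that was above background on the same array. Against the mean of the 3 strains miR-106b was at least 16.3-fold lower (gland mean 5.82), miR-20a at least 13.2-fold (5.52), miR-17-5p at least 12.6-fold (5.45) and miR-106a at least 6.01-fold lower (4.38). With the 75th percentile of each array as reference these bounds fell to 2.07-fold, 1.68-fold and 1.60-fold, and none was left for miR-106a. Quantile normalization gave the lowest of the bounds, 1.73-fold for miR-106b, 1.41-fold for miR-20a and 1.35-fold for miR-17-5p, and again none for miR-106a. With the array median as reference the gland level of miR-20b, 1.15, was itself below what a tumor array could detect, so no fold is given there. Its bound was 1.81-fold with no normalization and 1.40-fold with normexp. Against FVB glands alone, no normalization gave it none.

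In the limma fit over 4 groups 6 of 6 members were called lower in tumors than in the mean of the 3 strains. By the same rule 52.5% of all miRNAs tested were called lower. The limma adjusted p-values of the 4 members with a bound at the array median ran from 4.70e-10 for miR-106a to 2.32e-09 for miR-17-5p. These 4 passed the filter through the gland arrays alone, and their tumor values were at background. Their p-values therefore rest on the spread of background values, and only the bounds describe their tumor levels. miR-93 differed by -1.78 (SE 0.29, limma adjusted p = 1.53e-04), with replicate 2 at its dim value. The calls of miR-20b, here and against FVB glands, set a gland level that on this scale was under the tumor detection limit against tumor background. They are not read as a change. Against FVB glands alone, the strain of the tumor mice, 6 of 6 members were called lower, beside 52.5% of all tested. There miR-93 differed by -2.17 (limma adjusted p = 3.64e-04). With the ratio of green to red, miR-17-5p and miR-106a were no longer called against the mean of the 3 strains.

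The sign for miR-93 rests on the scaling. With the 75th percentile as reference it was 1.20 higher in tumors (limma adjusted p = 1.11e-04), while the median difference of all tested miRNAs rose from -0.83 to 2.14. Relative to the all-miRNA median, miR-93 stood at -0.94 against the mean of the 3 strains and at -1.12 against FVB glands. A constant shift of whole arrays leaves these values in place, but other processing does not. With quantile normalization miR-93 was 2.02 higher in tumors than in the mean of the 3 strains, while the all-miRNA median was -0.19. With green over red it also lay above that median (-0.04). Many of the miRNAs behind that median were themselves not above background on tumor arrays.

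**Figure D4:**
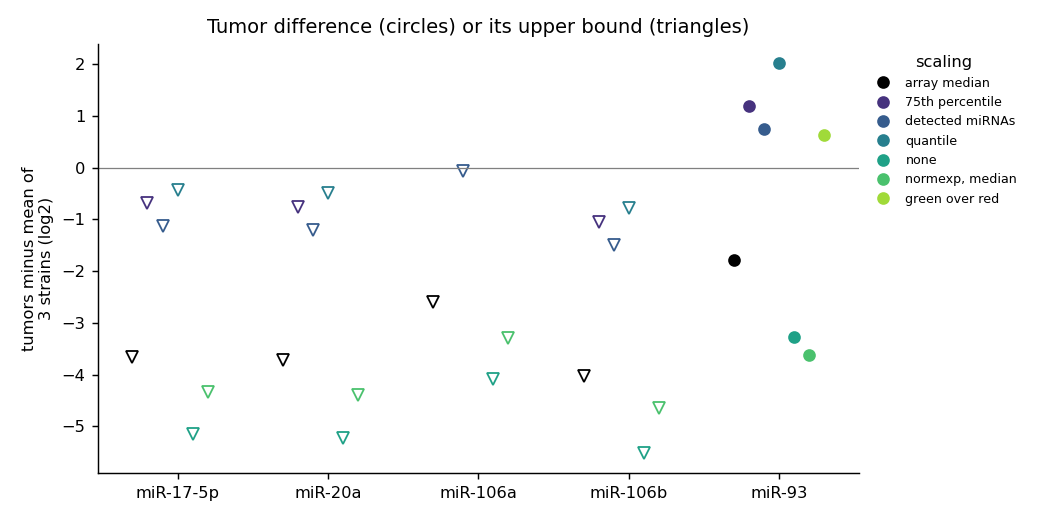
Log2 difference of tumors minus the mean of the 3 gland strains under 7 ways of scaling the arrays, as coloured in the key, with circles for the difference of miR-93 and open triangles for the value below which the difference of a member not above background must lie. Triangles are left out where no bound could be given (always with green over red), as is miR-20b. Circles lie on both sides of 0.

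Within the chromosome 5 cluster, tumor replicates 1 and 3 measured miR-93 with all 4 spots above background and miR-106b with 0 and 1 spots, and on replicate 2 neither was above background. On the 8 glands, where both were measured, miR-106b minus miR-93 was 0.34 to 0.75. miR-93 minus miR-25 could be read on the 2 tumor arrays where both were above background, at -0.72 for replicate 1 and -1.52 for replicate 3, outside the gland range of 0.15 to 0.32. These pairs were picked after their values were seen and were not tested. The mates that stayed above background on tumor arrays were miR-25 and miR-92 on all 3 and miR-19b on 1, while miR-18 and miR-19a did so on none.

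Loss of signal was the rule on these arrays. Of the 156 matched miRNAs that were above background on all 8 glands, 69.9% were above background on no tumor array and 16.7% on at least 2 of the 3. The median GC content of the mature sequence was 48.9% for those seen on at least 2 tumor arrays and 45.5% for those seen on none. In the family it was 52.2% for miR-93, 47.8% for miR-17-5p, miR-106a and miR-20b, 42.9% for miR-106b and 39.1% for miR-20a, with 50% for miR-25 and 57.1% for miR-92. The part of base composition, tumor array brightness and slide in these values was not tested. In bulk tissue, fewer cells of a type and less of the miRNA per cell cannot be told apart.

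Of the 266 array miRNAs matched to RefSeq, 2 others held bases 3 to 8 of the family within their first 8 bases, miR-294 and miR-295, of a cluster on chromosome 7 known from embryonic stem cells. The probes named miR-302 and miR-302d, of another stem cell cluster, had no exact match and were not searched. Neither miR-294 nor miR-295 was above background in tumors or in Balb/C and FVB glands, and miR-294 was so on the 3 FVB129B6 arrays only.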

How the data were processed

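The authors deposited, for each array, spot intensities in a green and a red channel, which the Feature Extraction program had corrected for background and dye. They also deposited log2 values after global median normalization, equal to log2 green intensity after one constant per array. The custom array holds 1336 plus-strand mouse spots, 4 for each of 334 miRNAs. Tumor arrays were read with program version 9.5.1.1 and gland arrays with 10.5.1.1. The labels do not say what RNA the red channel held.

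Green intensities were log2 transformed and the median of the array was subtracted. Spots marked as outliers were left out and the rest averaged per miRNA. A miRNA entered a test when it was well above background on at least 3 arrays of the fit, which held for 261. limma was fitted to all of them, calls were made at 0.05 after Benjamini-Hochberg adjustment, and the fit ran over the 8 gland arrays for strains and all 11 for tumors. Two-sided intervals are at 95%. The number of arrays limits the precision. Within-array differences were tested by exact permutation of the strain labels. The labels give no shared animal or day to a replicate number, and deviations from the group means correlated at 0.0440 on average over the 15 pairs of like-numbered arrays, so the numbers were not used as pairs.

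Members are all miRNAs matching the rule. Cluster mates, seed relatives and the 5 miRNAs most like the members were also named by rule. Members and lists were chosen with earlier results of these data known. Alternatives were other scalings, filters, channels, spots, tests, the replicate block and each array left out. All 6 members matched RefSeq. miR-17-3p was not among the listed probes analysed here, so the planned comparison of both arms was not run. The fits were tested on simulated data. R 4.3.3, limma 3.58.1, Python 3.11.15, numpy 2.4.6, pandas 2.3.3 and matplotlib 3.10.9 were used.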

Additional observations from a re-analysis of the deposited data

Results flagged for a closer look

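The red channel carries signal that the main comparisons above do not use, and what RNA it held is not given in the sources used here. Above, it entered only the green-to-red ratios and the red levels of miR-20b. In red 6 of 6 members passed the background call on each of the 8 glands, where 285 to 296 of the 334 miRNAs did. Relative to the array median of the red channel, miR-106b stood at 4.39 to 4.80 and miR-20b at 1.07 to 1.48 on them. On the tumor arrays miR-93 was well above background in red on 3 of 3 arrays, at 1.83 to 2.37 against 3.59 to 4.20 on the glands. The other members were above background in red on 0 of 3. Of the 334 miRNAs, 47 to 61 were above background in red on a tumor array.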

How the results depend on the processing

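Precision is limited by 2 or 3 arrays a group, and on tumor arrays by signal over background. Causes of the changes below were not tested.

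The count of members called between strains (0) became 6 with no normalization, 3 with the detected-miRNA median and with normexp, and 1 with no filter, the filter on every array or an intensity trend. The share of all miRNAs passing that F-test under these settings is not given here. For Balb/C minus FVB (1) it was 6 with no normalization and 3 with normexp, all higher, and with the detected-miRNA median it was 1 higher, while miR-93 was no longer called (-0.22, limma adjusted p = 0.215). It was 0 with the 75th percentile, quantile normalization, green over red, the averaged Balb/C pair or all 11 arrays in the fit. Of all 261 miRNAs tested, 151 were called higher and 0 lower in this contrast with no normalization. Those counts were 46 higher and 67 lower with normexp, and 43 and 26 with the detected-miRNA median. For FVB129B6 minus FVB (0) the members called were 6 with no normalization, 3 with the detected-miRNA median and with normexp, 2 with the 75th percentile and with quantile normalization, and 1 with green over red, all higher. Of all 261 miRNAs, 176 were higher and 3 lower with no normalization, 50 and 22 with the detected-miRNA median and 44 and 76 with normexp. These counts were 40 and 43 with the 75th percentile, 41 and 50 with quantile normalization and 25 and 14 with green over red. The tumor counts here include miR-20b, whose tumor values were not above background. For tumors minus FVB (6) the count was 2 with green over red, where 85 of all 261 miRNAs tested were called higher and 72 lower. The filter on every array left no member to test in tumors.

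Leaving out each array in turn gave 0 to 1 between strains, 0 to 1 for each strain minus FVB, 0 to 0 for Balb/C minus FVB129B6, 6 to 6 for tumors minus the mean of 3 strains and 5 to 6 for tumors minus FVB. A strain left with 1 array was taken to vary like the others. The FVB difference ran from -0.39 to -0.32 for miR-17-5p minus miR-106b and from -0.52 to -0.22 for miR-106a minus miR-106b, with the F-test over the strains passed for both throughout, and from -0.15 to 0.18 for miR-17-5p minus miR-106a. The last pair was also reversed with green over red (-0.15) and with outlier spots kept (-0.039).

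miR-93 in Balb/C minus FVB reversed with no normalization (0.69) and normexp (0.19), and in FVB129B6 minus FVB with no normalization (0.90), normexp (0.23) and the detected-miRNA median (0.012). miR-17-5p in FVB129B6 minus FVB ran from -0.019 (without FVB replicate 1) to 0.38 as single arrays were left out. In tumors minus the mean of 3 strains miR-93 reversed with the 75th percentile (1.20), the detected-miRNA median (0.76), quantile normalization (2.02) and green over red (0.64), and against FVB with the same settings in that order (1.07, 0.79, 1.80 and 0.47). The fitted value of miR-20b, which is no measured change, reversed with the 75th percentile (1.77), the detected-miRNA median (1.33), green over red (0.84) and a floor at the dimmest detected level (0.64).

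Across all miRNAs tested, calls in tumors minus the mean of 3 strains were 99 higher and 137 lower, but 172 higher and 70 lower with the 75th percentile. For Balb/C minus FVB they were 15 higher and 84 lower against 31 and 16, and for FVB129B6 minus FVB 21 and 82 against 40 and 43.

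With the replicate block, 0 members were called between strains, 1 in Balb/C minus FVB, 0 in the other strain contrasts, 6 in tumors minus the mean of 3 strains and 5 in tumors minus FVB. The paired FVB differences were -0.37 for miR-17-5p minus miR-106b, -0.40 for miR-106a minus miR-106b and 0.03 for miR-17-5p minus miR-106a, and the replicate block changed no call of the F-test over the strains. miR-17-5p minus miR-17-3p was not run.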
